A study of Homo sapiens with 9 samples.

Results

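The mitochondrial ribosomal protein genes are the nuclear genes for the protein subunits of the ribosome inside mitochondria. They were taken as every row of the count table whose symbol starts with MRPL or MRPS followed by a number and holds no hyphen. This gave 78 of the 19907 genes in the table, 49 with an MRPL symbol (named for the large subunit) and 29 with an MRPS symbol (named for the small subunit). They were described across 9 RNA sequencing libraries of the established human embryonic stem cell line HUES8 (wild-type), driven toward definitive endoderm, the germ layer of gut, liver and pancreas. All 3 groups were differentiated in the same medium, with activin A at 100 ng/mL, Wnt-3a at 50 ng/mL and 0.2% albumin free of fatty acids for 2 days, followed by a period without Wnt-3a. DE had no inhibitor, C75 had the fatty acid synthase inhibitor C75, and ETO had an inhibitor of fatty acid oxidation, with 3 libraries each. No dose, timing or vehicle of the inhibitors is given in the labels, and a single cell line was used. Whether replicate libraries stem from different cultures is not stated in the labels, so the p-values reflect the variation among libraries alone, and that variation may be technical.

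The mitochondrial ribosome translates the few messenger RNAs of the mitochondrial genome, all of which encode subunits of the respiratory chain and ATP synthase. Its RNAs are transcribed inside the organelle, whereas its proteins are encoded in the nucleus, made in the cytosol and imported. Many of these proteins descend from bacterial ribosomal proteins and others were added during the evolution of mitochondria, and a few symbols do not match the place of the protein in the ribosome.

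A short run of letters was more frequent in the promoters of the members than in those of all genes, and it is shown here for members described below. RefSeq windows on GRCh38.p14 from 250 bases before to 50 bases after the transcription start were matched for 69 of the 78 members. The letters AAGATGG, the core of the motif of the transcription factor YY1, were found on either strand in 23 of the 69 windows (33.3%), against 965 of 14896 windows (6.48%) of the genes in the table. The share was 33.3% in MRPL (14 of 42) and 33.3% in MRPS (9 of 27). In 16 members (23.2%) the match lay after the start on the strand of the gene, against 2.68% of all windows. The core holds the letters ATG, and whether these are the start codon of the member was not tested. The windows of 27 bases around this match are printed 5′ to 3′ on the strand of the gene with the core in capitals, for 8 members whose values are given below. They lie at chr5:72320208-72320234 (MRPS27, minus strand), chr12:93467512-93467538 (MRPL42, plus), chr6:30617853-30617879 (MRPS18B, plus), chr6:43687766-43687792 (MRPS18A, minus), chr5:44808950-44808976 (MRPS30, plus), chr11:66438808-66438834 (MRPL11, minus), chr17:38297171-38297197 (MRPL45, plus) and chr7:43869482-43869508 (MRPS24, minus).
MRPS27: ggtacgctccAAGATGGctgcctccat
MRPL42: ggattgaaacAAGATGGcgggttcgtg
MRPS18B: ggcgtacgtcAAGATGGcggcgtctgt
MRPS18A: taggtttttgAAGATGGcggccctcaa
MRPS30: atcgcgggcaAAGATGGcggcggccag
MRPL11: cctctggcccAAGATGGtggcgcccag
MRPL45: ttgcgggaacAAGATGGcagcccccat
MRPS24: cgcttggcccAAGATGGcggcctccgt

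The same windows were searched on both strands for 4 other cores, and none of the cores holds another. The core of the factor NRF1, TGCGCA, was in 20.3% of the 69 member windows against 10.9% of all windows. The core of the ETS factors, CGGAAGT, was in 17.4% against 10% of all windows, with 10 of 42 in MRPL (23.8%) and 2 of 27 in MRPS (7.41%). The E-box CACGTG was in 8.7% of member windows against 8.94% of all, and the CCAAT box was in 29% against 36.4%. These are matches of letters and no binding was measured. The stretches upstream of 4 members are printed with matched cores in capitals, MRPL22 at chr5:154940950-154941069 (plus strand, NRF1 core), MRPL3 at chr3:131502984-131503103 (minus, ETS core), MRPS18C at chr4:83455857-83455931 (plus, CCAAT box, E-box and NRF1 core) and MRPS25 at chr3:15065336-15065455 (minus, no match). MRPL22 and MRPS25 are shown because they had the largest rises in C75 against ETO, MRPL3 because it rose with ETO, and MRPS18C because it is a paralogue of the 2 MRPS18 genes above.
MRPL22: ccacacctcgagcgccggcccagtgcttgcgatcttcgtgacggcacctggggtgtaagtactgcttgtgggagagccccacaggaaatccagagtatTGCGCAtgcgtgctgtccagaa
MRPL3: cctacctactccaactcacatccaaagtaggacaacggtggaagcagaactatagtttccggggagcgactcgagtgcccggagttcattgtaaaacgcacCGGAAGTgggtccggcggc
MRPS18C: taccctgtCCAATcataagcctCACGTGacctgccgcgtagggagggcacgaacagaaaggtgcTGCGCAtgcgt
MRPS25: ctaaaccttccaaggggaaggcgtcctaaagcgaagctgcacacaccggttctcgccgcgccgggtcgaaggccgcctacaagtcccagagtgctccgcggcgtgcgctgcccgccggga

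The members lie on 21 chromosomes, with at most 8 on a chromosome. A gene on the opposite strand started within 1 kb of 29 of the 78 members (37.2%), against 13% of all genes in the table. MRPL47 starts 36 bases from NDUFB5 and MRPL36 starts 34 bases from NDUFS6, both genes of respiratory complex I. MRPL43 starts 148 bases from TWNK, the gene of the mitochondrial DNA helicase, and MRPS12 starts 348 bases from SARS2, the mitochondrial seryl-tRNA synthetase gene. MRPL46 and MRPS11 start 34 bases from each other, so that a large and a small subunit gene share one upstream stretch, chr15:88467420-88467452, printed here on the minus strand because MRPS11 was called in C75 and MRPL46 was not (below).
MRPL46 to MRPS11: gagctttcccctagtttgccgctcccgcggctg

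The libraries held between 17379711 and 21510997 counts. The members took 0.351 ± 0.0101% of the counts in DE, 0.363 ± 0.00497% in C75 and 0.331 ± 0.00125% in ETO (SD, n = 3 each). Of the 78 members, 77 passed the filter on low counts and were tested. MRPS24 did not, with 21 counts over all 9 libraries, and it shares 23.2% of its exon bases with URGCP-MRPS24, which had 0 counts. Most of the tested genes differed between any 2 groups, so the share of all 14177 tested genes that passed is given beside the members' counts. All 10 definitive endoderm markers were detected in every group, and their summed level was 10044 to 10466 CPM (counts relative to the TMM-scaled library size) in DE, 15786 to 16155 in C75 and 5411 to 5533 in ETO. CER1 held most of this sum (7034 ± 152 CPM in DE, 11408 ± 186 in C75 and 3849 ± 82.0 in ETO). All 10 rose in C75 (median log2 fold change 0.58), and 1 rose and 9 fell in ETO (median −1.44). The 8 pluripotency markers summed to 3507 to 3587, 3137 to 3184 and 4410 to 4509 CPM, and the 10 mesoderm markers, of which MSGN1 was at 0 in every group and FOXF1 at 0 in C75, to 241 to 249, 140 to 141 and 511 to 517 CPM. Ectoderm and neural markers summed to 799 to 810, 920 to 937 and 975 to 1002 CPM, with KRT5 at 0 in DE and SOX1 and NEUROG2 at 0 in C75. NES held much of this sum in ETO (367 ± 12.3 CPM in DE, 260 ± 8.27 in C75 and 829 ± 13.4 in ETO), while of the 5 ectoderm and neural markers tested 1 rose and 3 fell in ETO (median −1.39), and 3 rose and 2 fell in C75 (median 0.17). Trophoblast and amnion markers summed to 39.1 to 42.1, 22.3 to 25.6 and 40.9 to 46.5 CPM, with CGA at 0 in all groups. Of the 4 tested, 0 rose and 3 fell in C75, and 3 rose and 1 fell in ETO. These marker calls, at an edgeR adjusted p below 0.05, stand beside 31.2% higher and 31.9% lower over all tested genes in C75. In ETO the shares were 34.7% and 35.3%. The part of these marker shifts in the results below was not tested, and in bulk RNA fewer cells of a type and less RNA per cell cannot be told apart.

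Per gene length, the median level of the 78 members in DE was 14.0 RPKM (CPM divided by gene length in kilobases), with 14.1 in MRPL and 12.2 in MRPS. The highest was MRPS34, a small subunit protein, at 92.1 ± 5.31 RPKM (SD, n = 3). It was followed by MRPL51 at 52.4 ± 2.34, MRPL3 at 48.0 ± 0.402, MRPL15 at 44.5 ± 0.390 and MRPL28 at 44.2 ± 1.16 RPKM, of which MRPL15 and MRPL28 lay within their SD of each other. The lowest after MRPS24 (0.0456 ± 0.0263) were MRPL46 at 0.725 ± 0.0659, MRPL38 at 1.17 ± 0.0341 and MRPL53 at 2.52 ± 0.527 RPKM. The order depends on the gene length, which merges all annotated exons. By CPM in DE, MRPS34 (1097 bases) was at 101, below MRPL28 at 135, MRPL3 at 130 and MRPS6 at 129. MRPL42 (16393 bases) was among the 10 lowest per length at 86.6 CPM. Exon bases shared with another gene of the table were found in 34 members, 21 of them with a gene on the opposite strand and 13 with a gene on the same strand. Of the 10 members with the lowest RPKM 7 shared exon bases, against 3 of the 10 with the highest, and how reads in shared bases were counted is not given in the sources used here. MRPL38 shares 41.1% of its exon bases with other annotated genes and MRPL53 45.2%, and their levels and changes are uncertain to that extent.

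**Figure D1:**
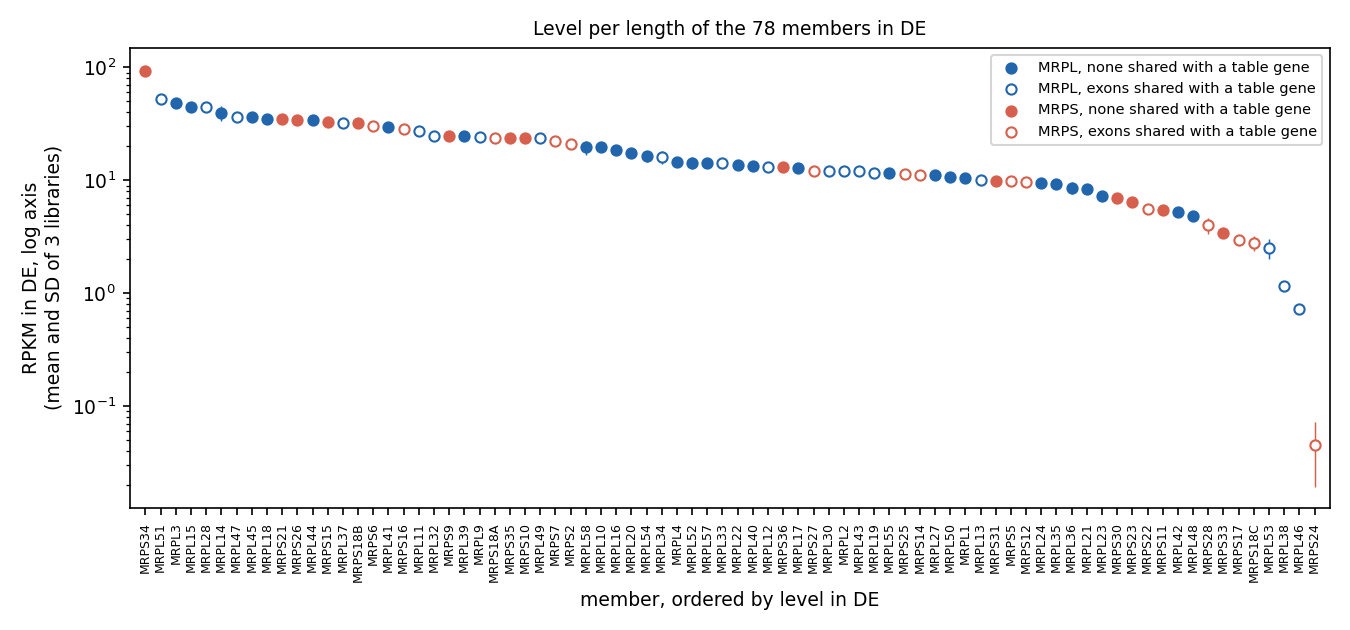
Level per gene length of the 78 members in DE (RPKM, log axis), as mean and SD of 3 libraries, in order of level, with open symbols for members that share exon bases with another gene of the table. Levels run from 0.0456 RPKM in MRPS24 to 92.1 in MRPS34, and 7 of the 10 lowest members have open symbols.

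The summed level of both classes was highest in C75 and lowest in ETO. The 49 MRPL genes summed to 2065, 2205 and 2137 CPM in the DE libraries, 2236, 2297 and 2265 in C75, and 1999, 1992 and 2004 in ETO. The 28 tested MRPS genes summed to 1309, 1385 and 1350 CPM in DE, 1476, 1502 and 1479 in C75, and 1221, 1245 and 1239 in ETO. With TMM scaling, no library of one group reached the range of another in either class. As a share of all counts without that scaling, the members took 0.341 to 0.362% in DE and 0.360 to 0.369% in C75, which overlapped. In ETO they took 0.330 to 0.332%. The means for MRPL were 2136 ± 70.1 CPM in DE, 2266 ± 30.5 in C75 and 1998 ± 6.08 in ETO, and for MRPS 1348 ± 38.2, 1485 ± 14.0 and 1235 ± 12.9 (SD, n = 3). The ratio of the MRPL to the MRPS sum was 1.58 ± 0.00721 in DE, 1.53 ± 0.00924 in C75 and 1.62 ± 0.0190 in ETO, with ranges that did not overlap. The MRPS sum therefore stood higher relative to MRPL in C75 and lower in ETO, and sums weigh abundant genes more than the medians given below. Most of the rise of the MRPS sum in C75 and nearly all of its fall in ETO lay in 3 genes. These were MRPS15 (95.4, 153 and 64.2 CPM in DE, C75 and ETO), MRPS6 (129, 160 and 65.9) and MRPS25 (60.8, 90.9 and 36.2). Among the 28 MRPS genes 12 were called higher and 4 lower in C75, and 6 higher and 13 lower in ETO. The order of the ratio thus rests on MRPS15, MRPS6 and MRPS25 and does not describe the MRPS class as a whole. The ratio without them was not computed. Mitochondrial-encoded transcripts held 3.01 ± 0.127% of counts in DE, 3.42 ± 0.148% in C75 and 4.36 ± 0.107% in ETO. With these left out of the total, the order was kept, at 2217 ± 71.4, 2351 ± 31.9 and 2071 ± 5.20 CPM for MRPL and 1400 ± 38.8, 1541 ± 15.0 and 1280 ± 13.2 for MRPS.

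**Figure D2:**
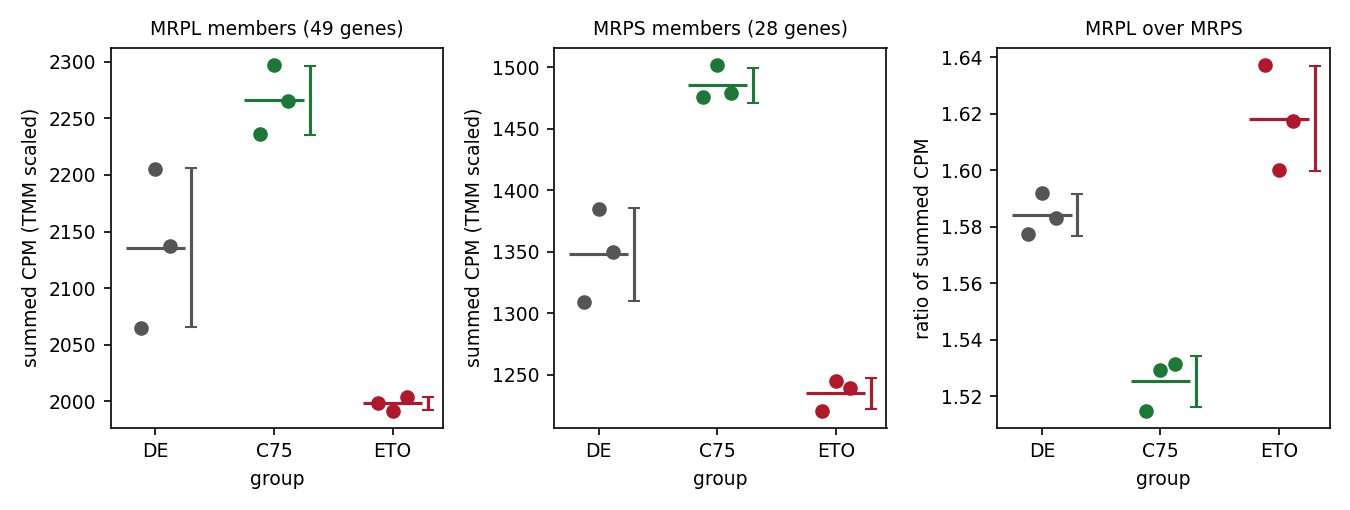
Summed CPM of the tested MRPL and MRPS genes and their ratio in each library (points), with group means (lines) and SD of 3 libraries (bars); the vertical axes do not start at 0. C75 lies above and ETO below DE in both sums, whereas the ratio is lowest in C75 (1.53) and highest in ETO (1.62). The order of the ratio rests on MRPS15, MRPS6 and MRPS25.

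C75 against DE sets the libraries with the fatty acid synthase inhibitor against those without an inhibitor, and how far the enzyme was blocked was not measured here. In C75, 29 of the 77 members were higher and 11 lower than in DE at an edgeR adjusted p below 0.05, where 63.1% of all genes were called (31.2% higher, 31.9% lower). The members' called share, 51.9%, was below that of all genes. Of the 49 MRPL genes 17 rose and 7 fell with a median log2 fold change of 0.06, and of the 28 MRPS genes 12 rose and 4 fell with a median of 0.10, against −0.00 over all genes. Most of the changes were small, since 9 members exceeded a 1.2-fold rise and 3 a 1.2-fold fall by edgeR's test against that fold (glmTreat), where 30.3% of all genes did (13.6% higher, 16.7% lower). The libraries of DE and C75 did not overlap in 43 of 77 members (55.8%) and in 65.8% of all genes. The split moved with the scaling in the members and in all genes, and it moved further in the members. Of the calls, 72.5% were higher in the members and 49.4% in all genes, whereas upper-quartile scaling and library totals each gave 19 members higher and 15 lower (55.9% higher), beside 42.1% and 40.4% higher in all genes. Among the 30 MRPL genes with a homologue among bacterial ribosomal proteins 12 rose and 2 fell, and among the 19 without one 5 rose and 5 fell, a difference that was not tested.

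MRPL22 encodes a large subunit protein that lines the tunnel through which the new chain leaves. It had 73.1, 74.7 and 70.1 CPM in DE and 129, 138 and 129 CPM in C75. All C75 libraries lay above all DE libraries, 1.82-fold (log2 fold change 0.86, SE 0.043, adjusted p = 1.9e-18), the largest rise of any member in C75. MRPS15, the homologue of a bacterial protein that binds the small subunit RNA, rose from 92.5, 100 and 93.6 CPM to 150, 155 and 153 CPM, 1.61-fold (0.68, SE 0.040, adjusted p = 2.2e-16). MRPS25, a small subunit protein particular to mitochondria, rose from 62.5, 59.6 and 60.3 CPM to 90.4, 95.6 and 86.6 CPM, 1.49-fold (0.58, SE 0.047, adjusted p = 7.3e-13). In both, the lowest C75 library was well above the highest DE library. MRPS25 shares 22.2% of its exon bases with NR2C2 on the opposite strand, whereas MRPL22 and MRPS15 share none. MRPL53 rose as well (0.68, SE 0.171, adjusted p = 8.0e-04), at 2.56, 3.77 and 3.81 CPM in DE and 5.41, 4.84 and 5.93 CPM in C75. Its counts are few, and 45.2% of its exon bases lie in exons of CCDC142 as well. MRPS11 rose by 0.56 (SE 0.058) and MRPS23 by 0.48 (SE 0.058), with adjusted p of 4.3e-10 and 7.1e-09.

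MRPS27, a small subunit protein with pentatricopeptide repeats, was the member that fell most in C75. It had 79.5, 77.7 and 80.3 CPM in DE and 53.2, 50.2 and 50.7 CPM in C75, so that the groups were clearly apart, 1.54-fold lower (−0.62, SE 0.047, adjusted p = 1.2e-13). MRPL42, a large subunit protein without a bacterial homologue, fell from 85.3, 87.6 and 87.0 CPM to 57.1, 55.1 and 59.5 CPM, 1.51-fold (−0.60, SE 0.043, adjusted p = 5.2e-14). No library of the groups overlapped for either gene. MRPS18B fell from 60.4 ± 1.69 to 43.9 ± 0.297 CPM (−0.46, SE 0.051, adjusted p = 1.2e-09) and MRPL48 from 21.4 ± 1.26 to 16.3 ± 2.02 CPM (−0.39, SE 0.084, adjusted p = 1.6e-04). MRPS28 fell from 7.27 ± 1.13 to 5.21 ± 0.322 CPM (−0.47, SE 0.142, adjusted p = 0.0044), and it shares 35.8% of its exon bases with AC036214.3 on the same strand. MRPL54 was lower by −0.28 (SE 0.103, adjusted p = 0.017), a call that was lost without DE replicate 2.

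MRPL46 and MRPS11, whose starts lie 34 bases apart, did not give the same call in C75. MRPL46 had 4.51, 5.14 and 4.34 CPM in DE and 4.11, 3.96 and 3.35 CPM in C75, which did not pass the test (−0.29, SE 0.158, adjusted p = 0.11). MRPS11 had 30.2, 31.1 and 30.5 CPM in DE and 46.1, 44.9 and 43.9 CPM in C75 and was called higher. The difference between the 2 genes was not tested, MRPL46 had far fewer counts, and it shares 11.3% of its exon bases with AC013489.1 on the same strand. That gene had 214 to 1581 counts per library, against 61 to 95 in MRPL46, so the level and change of MRPL46 are uncertain.

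**Figure D3:**
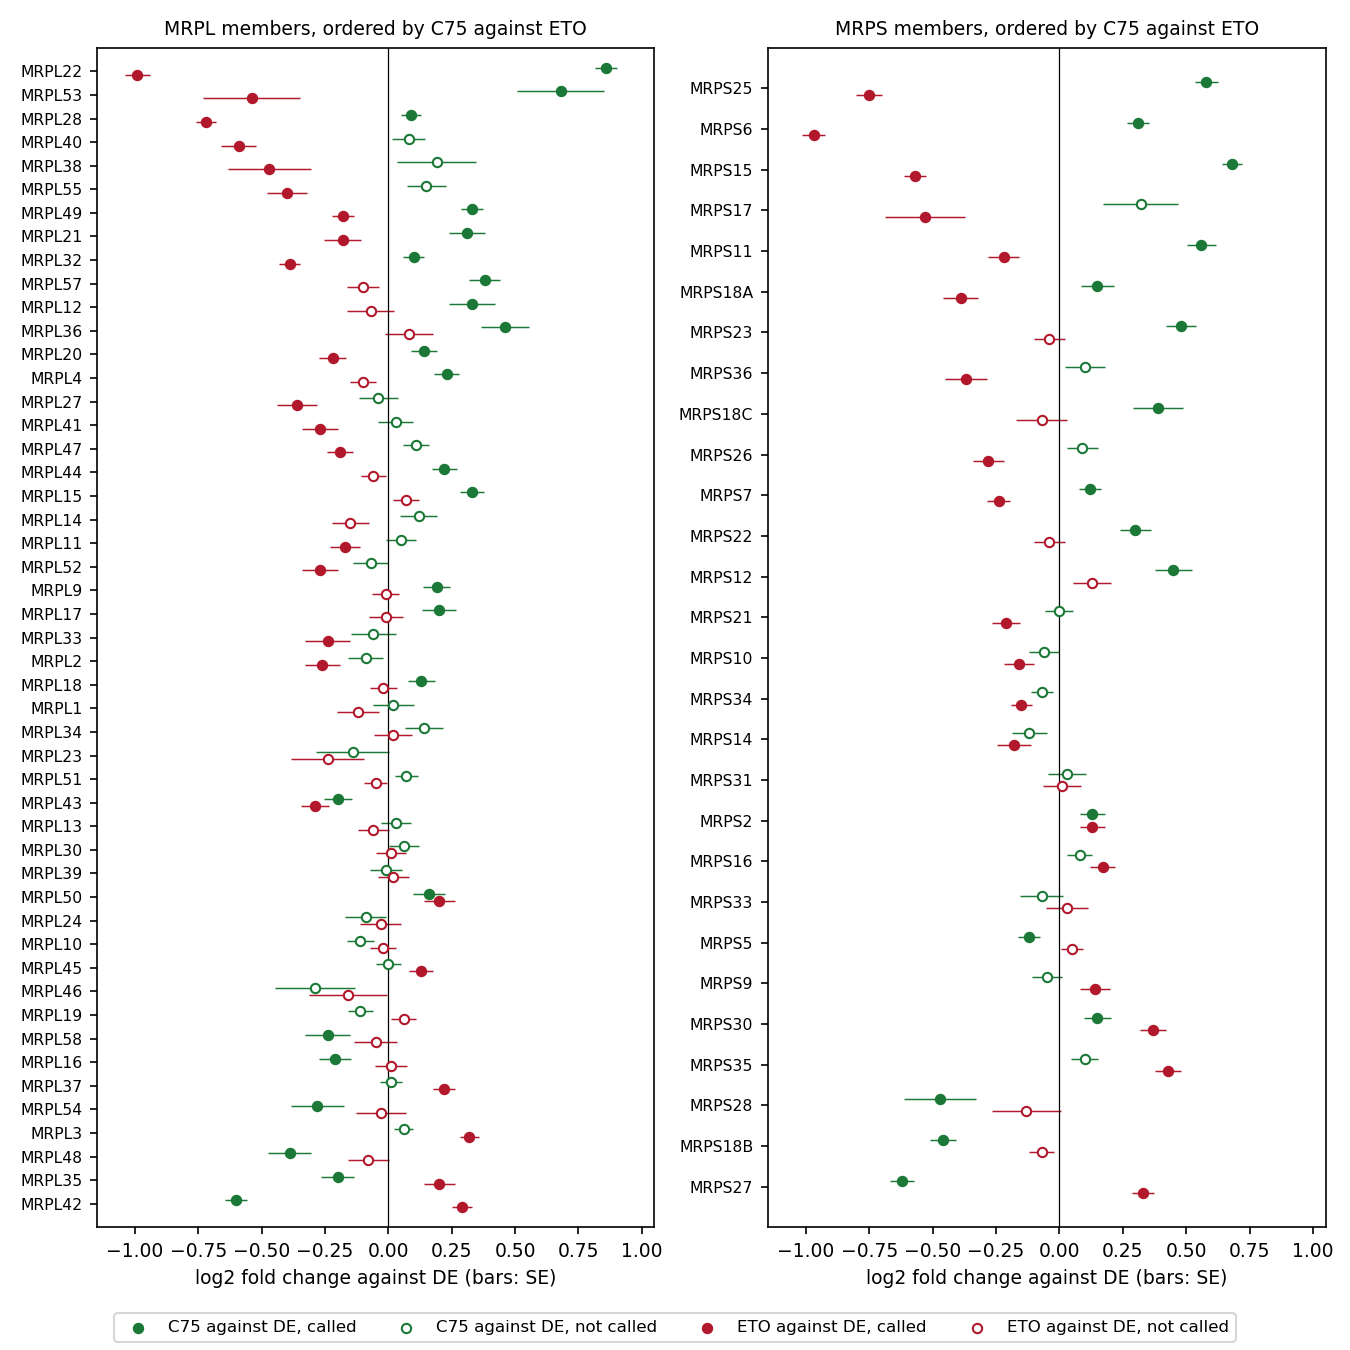
Log2 fold change against DE of the 77 tested members in C75 (green) and ETO (red), with SE bars and filled symbols at an adjusted p below 0.05, ordered by the difference between C75 and ETO. MRPL22 is farthest right in C75 (0.86) and farthest left in ETO (−0.99), MRPS27 and MRPL42 have the reverse order, and both series share the DE libraries.

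ETO against DE sets the libraries with the inhibitor of fatty acid oxidation against those without an inhibitor, and how far oxidation was blocked was not measured here. In ETO, 12 members were higher and 31 lower than in DE, where 69.9% of all genes were called (34.7% higher, 35.3% lower) and 55.8% of the members were. Of the MRPL genes 6 rose and 18 fell with a median log2 fold change of −0.08, and of the MRPS genes 6 rose and 13 fell with a median of −0.10, against −0.00 over all genes. A 1.2-fold change was exceeded by 4 members upward and 10 downward, against 42.0% of all genes (22.5% higher, 19.5% lower). The libraries of DE and ETO did not overlap in 41 of 77 members (53.2%) and in 71.7% of all genes. A correction for gene length and GC content gave 18 higher and 20 lower and a median of 0.02 in MRPL. With it 47.4% of the members' calls were higher, near the 50.2% of all genes. Without it these shares were 27.9% and 49.6%.

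MRPL22 had 35.0, 38.1 and 37.1 CPM in ETO, below every DE library. It fell 1.98-fold (−0.99, SE 0.049, adjusted p = 6.5e-19), the largest fall of any member. MRPS6, the homologue of a bacterial small subunit protein, fell from 121, 131 and 135 CPM in DE to 68.2, 67.8 and 61.6 CPM in ETO, 1.95-fold (−0.97, SE 0.045, adjusted p = 9.8e-20). MRPS25 fell to 34.7, 37.3 and 36.7 CPM (−0.75, SE 0.051, adjusted p = 5.1e-15) and MRPS15 to 67.3, 62.5 and 62.7 CPM (−0.57, SE 0.043, adjusted p = 9.3e-14). For all 4 genes every ETO library was below every DE library. MRPS6 shares 6.4% of its exon bases with SLC5A3, a sodium and inositol cotransporter gene. MRPL28, a large subunit homologue of a bacterial protein, fell from 131, 137 and 136 CPM to 84.7, 77.3 and 82.3 CPM, 1.65-fold (−0.72, SE 0.040, adjusted p = 1.7e-17). MRPL40 fell from 26.2 ± 0.322 to 17.4 ± 0.665 CPM (−0.59, SE 0.069, adjusted p = 3.3e-09). MRPL28 and MRPL40 have GC contents of 63.3% and 59.3%, and with the length and GC correction their log2 fold changes were −0.47 and −0.35.

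The members that rose in ETO did so by at most 1.35-fold. MRPS35, a small subunit protein particular to mitochondria, had 44.9, 46.1 and 50.6 CPM in DE and 64.9, 63.3 and 62.4 CPM in ETO, with no overlap (0.43, SE 0.051, adjusted p = 3.3e-09). MRPS27, which fell in C75, rose in ETO to 95.4, 105 and 99.0 CPM, above all DE libraries (0.33, SE 0.043, adjusted p = 2.3e-08). MRPL3, which lies near the peptidyl transferase centre, rose from 132, 130 and 129 CPM to 164, 167 and 157 CPM (0.32, SE 0.036, adjusted p = 1.6e-09). The 3 genes rose in all ETO libraries by amounts larger than the spread within groups. MRPL42 rose to 105, 106 and 107 CPM (0.29, SE 0.040, adjusted p = 8.2e-08), which the length and GC correction reduced to 0.06 (adjusted p = 0.14). MRPL37 rose by 0.22 (SE 0.042, adjusted p = 1.9e-05).

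The third comparison set the inhibitors against each other and tests the difference between them directly. In C75, 41 members were higher and 17 lower than in ETO, where 79.2% of all genes were called (39.9% higher, 39.2% lower) and 75.3% of the members were. Of the MRPL genes 27 were higher and 10 lower (median log2 fold change 0.18), and of the MRPS genes 14 were higher and 7 lower (median 0.15), against 0.01 over all genes. A 1.2-fold difference was exceeded by 24 members upward and 5 downward, against 57.5% of all genes (28.0% higher, 29.5% lower). In 55 of 77 members (71.4%) the libraries did not overlap, against 80.0% of all genes. With the length and GC correction 32 members were higher and 21 lower, with a median of 0.07 in MRPL. Of the calls, 60.4% were then higher in the members and 50.8% in all genes, against 70.7% and 50.5% without it. Genes placed by structure in place of symbol gave 28 higher and 11 lower of 51 in the large and 12 higher and 6 lower of 25 in the small subunit.

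Between the inhibitors MRPL22 differed most, 3.60-fold higher in C75 (1.85, SE 0.047, adjusted p = 6.0e-28). MRPS25 was 2.51-fold, MRPS6 2.43-fold and MRPS15 2.38-fold higher in C75, at 1.33, 1.28 and 1.25 on the log2 scale (SE 0.050, 0.044 and 0.042) and adjusted p of 6.6e-23, 8.0e-24 and 2.8e-24. MRPS6 had 155, 163 and 162 CPM in C75, above DE and ETO alike. These 4 genes had C75 highest, DE between and ETO lowest, with no library out of that order. MRPL53 was 2.34-fold higher (1.23, SE 0.180, adjusted p = 1.9e-07) and MRPS17 1.80-fold (0.85, SE 0.155, adjusted p = 8.4e-06), both under 10 CPM. MRPS17 shares 27.0% of its exon bases with other annotated genes. MRPS27 was 1.94-fold lower in C75 than in ETO (−0.96, SE 0.046, adjusted p = 8.7e-20) and MRPL42 1.85-fold (−0.89, SE 0.042, adjusted p = 9.0e-20), and in both the order of the groups was reversed, ETO highest and C75 lowest in every library. The correction for length and GC gave −0.54 for MRPL42. MRPL35 (−0.40, SE 0.063, adjusted p = 7.0e-07), MRPS18B (−0.39, SE 0.051, adjusted p = 1.5e-08) and MRPS35 (−0.33, SE 0.051, adjusted p = 3.8e-07) were also lower in C75. MRPS28 was lower by −0.34 (SE 0.143, adjusted p = 0.031), a call that was lost with DESeq2, without C75 replicate 2 and without ETO replicate 1.

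**Figure D4:**
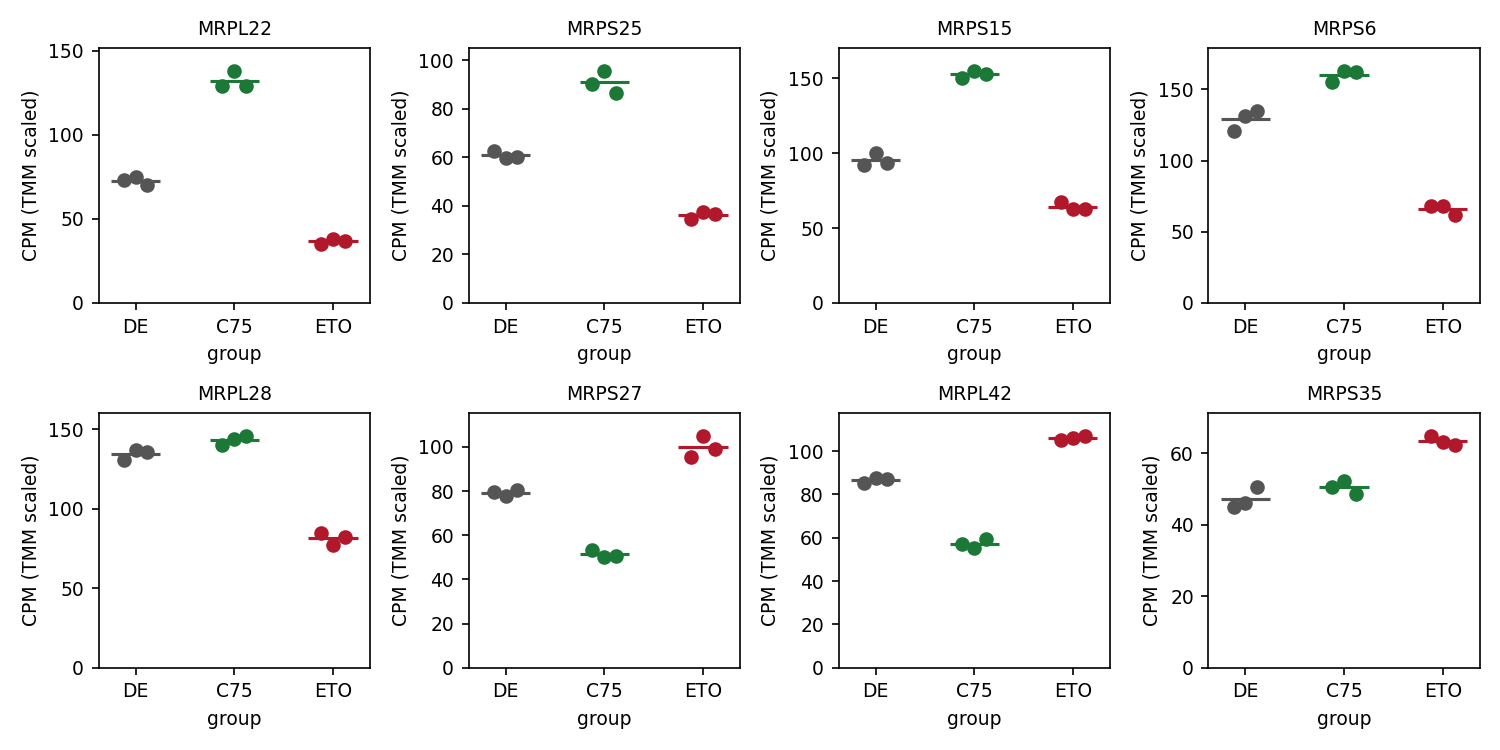
Level in each library (points, CPM, axes from 0) and group mean (lines) of 8 members with large differences. MRPL22, MRPS25, MRPS15 and MRPS6 run from ETO to DE to C75 upward, MRPS27 and MRPL42 run from C75 to DE to ETO upward, MRPL28 is low in ETO, and MRPS35 is high in ETO.

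Members were also followed by role, whatever their values. The stalk of the large subunit recruits translation factors. Its MRPL12 had 12.7, 14.1 and 14.0 CPM in DE, 15.6, 18.8 and 16.8 in C75 and 11.8, 13.4 and 13.7 in ETO. It rose in C75 (0.33, SE 0.089, adjusted p = 0.0018) and was not called in ETO (−0.07, SE 0.092, adjusted p = 0.51), and 68.2% of its exon bases are shared with a gene that had 0 counts. The stalk base proteins MRPL10 (−0.11 in C75, SE 0.053, adjusted p = 0.081, and −0.02 in ETO, SE 0.052, adjusted p = 0.78) and MRPL11 (0.05 in C75, SE 0.059, adjusted p = 0.44) were not called in C75. MRPL10 was called lower in C75 in 5 alternatives, with upper-quartile scaling (−0.15, adjusted p = 0.012), library totals (−0.17, adjusted p = 0.0066), a filter of at least 1 CPM in every library (−0.12, adjusted p = 0.047), the length and GC correction (−0.14, adjusted p = 0.015) and C75 replicate 3 left out (−0.19, adjusted p = 0.0048). MRPL11 fell in ETO (−0.17, SE 0.059, adjusted p = 0.014) with overlapping libraries, a call lost with the length and GC correction (−0.04) and when DE replicate 2 or 3 or ETO replicate 1 or 2 was left out. MRPS12, at the decoding centre, rose in C75 from 18.8, 22.7 and 20.7 CPM to 27.0, 28.3 and 29.3 CPM (0.45, SE 0.074, adjusted p = 3.1e-06), with no overlap. Its value in ETO, 0.13 (SE 0.075), had an adjusted p of 0.12. It was called higher in ETO with the length and GC correction (0.36, adjusted p = 4.1e-05) and without DE replicate 2 (0.21, adjusted p = 0.023), and the difference between the inhibitors, 0.32, became 0.03 with the length and GC correction.

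At the exit of the large subunit, MRPL44 rose in C75 (0.22, SE 0.049, adjusted p = 2.4e-04) and MRPL45, which holds the ribosome at the inner membrane, was at −0.00 (SE 0.048, adjusted p = 0.99). In ETO, MRPL44 was at −0.06 (SE 0.049, adjusted p = 0.26), and MRPL45 rose by 0.13 (SE 0.047, adjusted p = 0.018), which was lost without DE replicate 3 or ETO replicate 1. MRPL58, a homologue of bacterial release factors, fell in C75 from 21.8 ± 3.07 to 18.4 ± 1.88 CPM (−0.24, SE 0.087, adjusted p = 0.016). These libraries overlap, and the call was lost without DE replicate 2 or C75 replicate 2.

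The 3 MRPS18 genes are paralogues of 1 bacterial small subunit protein and differed in their calls in C75. MRPS18C had 12.4, 12.3 and 16.0 CPM in DE and 17.6, 18.8 and 16.9 CPM in C75 and rose (0.39, SE 0.098, adjusted p = 8.9e-04). MRPS18B fell in C75, as given above, and MRPS18A, which sits in the large subunit in spite of its symbol, was called higher (0.15, SE 0.066, adjusted p = 0.040) with overlapping libraries. This last call was lost in 8 of the alternatives, among them upper-quartile scaling, DESeq2 and leaving out DE replicate 1 or 3 or C75 replicate 1 or 3. In ETO, MRPS18A fell from 29.4, 32.6 and 29.9 CPM to 23.1, 22.3 and 24.7 CPM (−0.39, SE 0.068, adjusted p = 5.4e-06), which the length and GC correction reduced to −0.18 (adjusted p = 0.012). MRPS18B and MRPS18C were both at −0.07 in ETO (SE 0.049 and 0.101, adjusted p = 0.22 and 0.57). Reads shared between these paralogues, if any, could not be traced in counts per gene, and MRPS18A and MRPS18C share 47.0% and 40.2% of their exon bases with genes on the opposite strand.

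A further pair of symbols does not match the structure. MRPS30 belongs to the large subunit. It had 45.6, 41.4 and 42.7 CPM in DE, 48.9, 47.0 and 48.7 in C75 and 55.0, 58.2 and 55.3 in ETO, and rose in both (0.15, SE 0.053, adjusted p = 0.011, and 0.37, SE 0.051, adjusted p = 6.6e-08). The C75 call was lost in 6 alternatives, with upper-quartile scaling or library totals and without DE replicate 2 or 3 or C75 replicate 1 or 3, and the difference between the inhibitors, −0.22, was 0.01 with the length and GC correction. MRPS36 is a subunit of the oxoglutarate dehydrogenase complex and not of the ribosome. It fell in ETO from 20.1 ± 1.63 to 15.5 ± 0.608 CPM (−0.37, SE 0.083, adjusted p = 2.1e-04) and was not called in C75 (0.10, SE 0.080, adjusted p = 0.26), where the length and GC correction gave a called rise of 0.31 (adjusted p = 6.2e-04).

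The promoter cores were set beside the changes as a description. Over all tested genes 31.2% were called higher and 31.9% lower in C75, and 34.7% and 35.3% in ETO. Of the 22 tested members with the YY1 core 10 rose and 3 fell in C75 (median 0.11), against 17 and 6 of 46 without it (median 0.08). In ETO the counts were 6 higher and 11 lower of 22 (median −0.16) and 5 and 17 of 46 (median −0.07). Of the 14 members with the NRF1 core 9 rose and 1 fell in C75 (median 0.17), against 18 and 8 of 54 without it (median 0.07). In ETO 2 rose and 4 fell with it (median −0.07), against 9 and 24 without it (median −0.11). Between C75 and ETO the medians were 0.39 and 0.16. With and without the ETS core, the medians were 0.09 and 0.09 in C75 and −0.17 and −0.07 in ETO. For the E-box, found in 6 members, they were 0.36 and 0.08 in C75 and 0.00 and −0.09 in ETO. For the CCAAT box they were 0.12 and 0.08, and −0.09 and −0.08. MRPS27, MRPL42 and MRPS30, printed above with the YY1 core, did not move together in C75, since the first pair fell and MRPS30 did not. The 29 members with a head-to-head neighbour had 13 higher and 4 lower in C75 (median 0.10), and the 48 tested members without one had 16 and 7 (median 0.08).

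The rest of the mitochondrial translation machinery was followed in lists chosen for their roles. Their counts stand beside 31.2% higher and 31.9% lower over all tested genes in C75, and 34.7% and 35.3% in ETO. Of 5 other ribosome subunits 2 rose and 2 fell in C75 and 1 rose and 3 fell in ETO. DAP3, the GTP-binding subunit, had 78.2 ± 1.17 CPM in DE and 101 ± 3.07 in C75 (0.37, SE 0.041, adjusted p = 1.6e-09), and PTCD3 fell in C75 (−0.25, SE 0.039, adjusted p = 1.3e-06). GADD45GIP1 and AURKAIP1 fell in ETO (−0.30 and −0.18, adjusted p = 9.7e-06 and 6.3e-04). Of 27 assembly factors 12 rose and 4 fell in C75 and 7 rose and 6 fell in ETO. In C75, MTG1, a GTPase of large subunit assembly, rose by 0.99 (1.99-fold, adjusted p = 1.6e-10) and MPV17L2 by 0.79 (SE 0.068, adjusted p = 3.2e-12), whereas in ETO NGRN fell by 0.37 and the helicase DHX30 by 0.25 (adjusted p = 3.0e-07 and 8.5e-07). NOA1 was lower and NGRN higher in C75 than in ETO (−0.85 and 0.70, adjusted p = 2.9e-15 and 5.6e-14).

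Of 18 mitochondrial translation factors 10 rose and 6 fell in C75 and 8 rose and 3 fell in ETO. MTRF1L, a release factor, rose in C75 (0.79, SE 0.062, adjusted p = 3.7e-13), and the initiation factor MTIF2 fell (−0.59, SE 0.061, adjusted p = 2.4e-10). In ETO the RNA-binding protein LRPPRC rose (0.59, SE 0.032, adjusted p = 7.6e-18), and the ribosome recycling factor GFM2 fell (−0.61, SE 0.043, adjusted p = 1.5e-14). Of 17 mitochondrial aminoacyl-tRNA synthetases 2 rose and 10 fell in C75, and 5 rose and 7 fell in ETO. MARS2 had 13.4 ± 1.18 CPM in DE, 9.09 ± 0.575 in C75 and 32.5 ± 2.44 in ETO and differed 3.56-fold between the inhibitors (adjusted p = 5.4e-20). WARS2 fell in C75 (−0.59, adjusted p = 1.1e-05) and RARS2 fell in ETO (−0.50, adjusted p = 1.6e-11). Of 16 genes of mitochondrial transcription and RNA processing 9 rose and 1 fell in C75, with TRMT10C at 0.34 and PNPT1 at −0.29, and 7 rose and 2 fell in ETO, with the mitochondrial DNA-binding protein TFAM at 0.54 and HSD17B10 at −0.38.

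Among the regulators of mitochondrial biogenesis, MYC had 40.4 ± 2.32 CPM in DE, 22.5 ± 1.76 in C75 and 116 ± 5.93 in ETO. PPARGC1A, a coactivator, had 2.65 ± 0.776 CPM in DE, 11.1 ± 1.49 in C75 and 1.19 ± 0.251 in ETO, and its relative PPARGC1B had 2.42 ± 0.595, 0.908 ± 0.299 and 8.77 ± 1.17. PPARGC1A was highest in C75, and MYC and PPARGC1B were highest in ETO. NRF1 fell in C75 (−0.32, SE 0.079, adjusted p = 7.4e-04) and was not called in ETO (0.08, SE 0.075, adjusted p = 0.38). YY1 was not called in C75 (−0.07, SE 0.034, adjusted p = 0.064) and rose in ETO (0.15, SE 0.033, adjusted p = 1.8e-04). A link of these factors to the promoter cores was not tested. Over the list of 10, 4 rose and 3 fell in C75 and 5 rose and 1 fell in ETO.

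Most of the transcripts that this ribosome translates rose with both inhibitors, with a smaller list median in C75. Of the 13 mitochondrial-encoded mRNAs 11 rose in C75 and 13 in ETO, and none was called lower in either. Over all tested genes 31.2% were called higher in C75 and 34.7% in ETO. MT-ND4 and MT-ND4L were not called in C75 (0.02 and 0.07, adjusted p = 0.57 and 0.11). A 1.2-fold rise was exceeded by 3 of the 13 in C75 and 12 in ETO. MT-CO3 rose by 0.55 (SE 0.030, adjusted p = 2.1e-17) and MT-ND1 by 0.44 (SE 0.032, adjusted p = 6.4e-14) in C75, and MT-ND6 by 0.83 (SE 0.034, adjusted p = 3.3e-21) and MT-ND5 by 0.78 (SE 0.033, adjusted p = 5.8e-21) in ETO. In ETO the list median was 0.58 beside −0.08 in MRPL and −0.10 in MRPS, and in C75 it was 0.21 beside 0.06 and 0.10. MT-ND6 is encoded on the opposite strand from MT-ND5, and antisense reads cannot be told apart if strand was not used in counting. Of 83 ribosomal protein genes of the cytosol 5 rose and 74 fell in C75 (median −0.37), and 16 rose and 36 fell in ETO (median −0.06). Between C75 and ETO, 12 assembly factors were higher and 6 lower, 7 translation factors higher and 9 lower, 6 synthetases higher and 9 lower, 1 mitochondrial-encoded mRNA higher and 10 lower, and 4 cytosolic ribosomal protein genes higher and 71 lower. Over all tested genes 39.9% were higher and 39.2% lower in C75 than in ETO. No test compared the lists with the members.

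**Figure D5:**
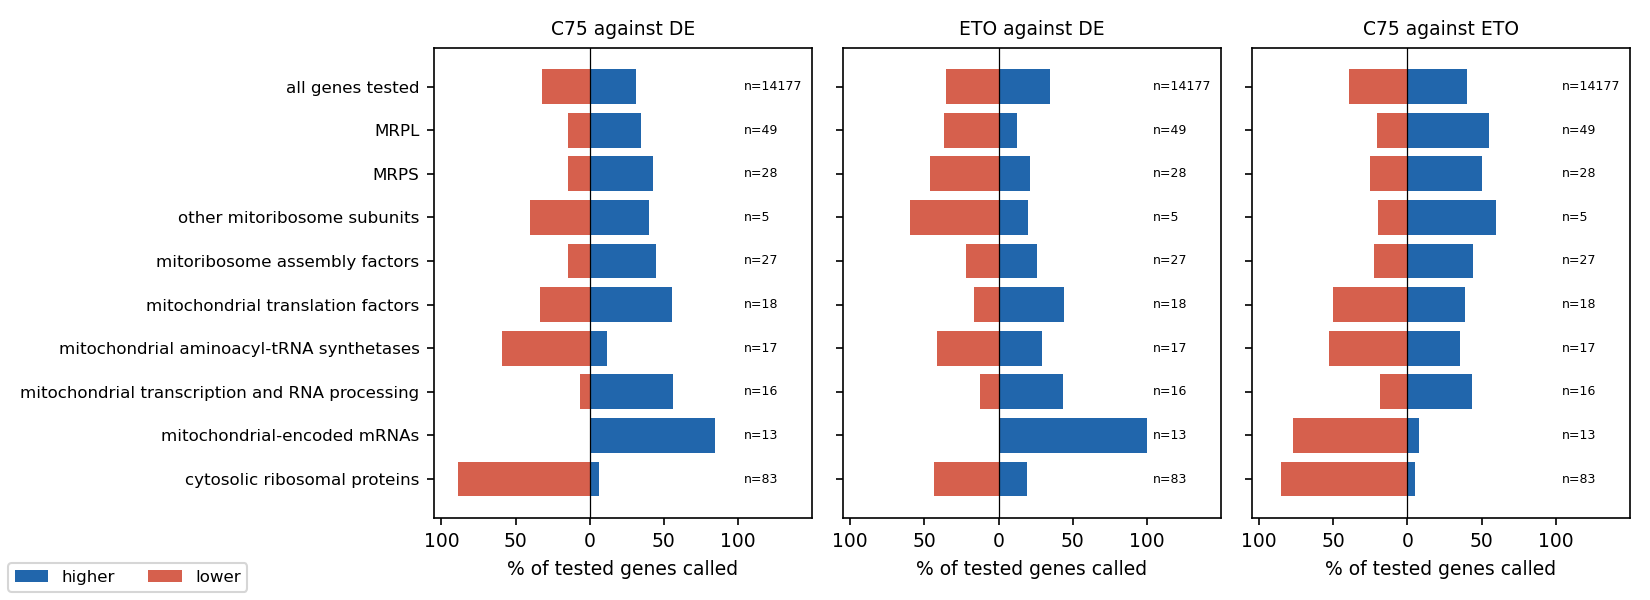
Share of tested genes called higher (blue, right) and lower (red, left) in each list and in all genes, with the number tested, for the 3 comparisons. MRPL stands at 34.7% higher and 14.3% lower in C75 and 12.2% and 36.7% in ETO, and MRPS at 42.9% and 14.3%, and 21.4% and 46.4%. All genes stand at 31.2% and 31.9% in C75, and 34.7% and 35.3% in ETO. Of the cytosolic ribosomal protein genes 74 of 83 are lower in C75, and 13 of 13 mitochondrial-encoded mRNAs are higher in ETO.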

How the data were processed

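RNA sequencing of 3 DE, 3 C75 and 3 ETO libraries was analysed from 1 table of raw counts per gene symbol that the authors deposited with a gene length column. HISAT2 2.1.0 and featureCounts 1.6.4 are named in the submitters' processing notes, with strand and multiple-overlap settings not given in the sources used here. All 19907 symbols matched GENCODE release 29 on GRCh38, and the lengths of 19875 equalled the merged exons of that release. Genes were filtered with filterByExpr, scaled by TMM and tested with quasi-likelihood F-tests in edgeR 4.0.16 (R 4.3.3) in 1 fit of 9 libraries with group as the only term, with Benjamini-Hochberg adjustment over 14177 genes (99.96% of counts). An adjusted p below 0.05 made a call, and glmTreat tested against a fold of 1.2. The fit was tested on simulated data.

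Named members are, per comparison, the top 6 called risers and the top 6 called fallers by log2 fold change whose libraries did not overlap, and 12 chosen by role. From each other list the 2 genes with the smallest p per comparison were taken, and NRF1 and YY1 were added because their cores are described. The members and lists were chosen with earlier results of these data known. Samples were grouped by the labels. Alternatives were other scalings, filters, DESeq2 1.42.0, fits of 6 libraries, a replicate block, a gene length and GC correction, classes by structure, members that share no exon bases with another gene of the table and each library left out. Libraries with the same number correlated at −0.09 to 0.16 after group means were removed, so the numbers were not taken as pairs, and no 2 libraries of a group agreed within sampling noise (chi-square per degree of freedom 1.79 to 3.37).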

Additional observations from a re-analysis of the deposited data

How the results depend on the processing

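Medians of the classes kept their direction in all alternatives but 2, the MRPL median of C75 against DE with library totals alone (−0.0040) and the MRPL median of ETO against DE with the length and GC correction (0.02). Library totals moved the median of all genes in the first by −0.06 as well, so that relative to all genes the MRPL median was not lower. Of the named members called by edgeR, MRPS30 turned from lower to higher in C75 against ETO with that correction (0.01). Named members that were not called also changed sign under some alternatives, among them MRPL12 (−0.07 to 0.20) and MRPL54 (−0.03 to 0.22) in ETO against DE with the correction. What caused the shifts with the correction was not tested. In C75 against DE, upper-quartile scaling and library totals each called 11 MRPL members higher in place of 17 and gave MRPS medians of 0.05 and 0.04. The length and GC correction called 10 MRPL members higher and 9 lower in ETO against DE, where 50.2% of the calls in all genes were higher. In C75 against ETO the MRPL median was 0.11 with upper-quartile scaling, 0.10 with library totals and 0.07 with the correction. A test against a 1.2-fold change called fewer members by construction, in C75 against DE 4 MRPL higher and 1 lower and 5 MRPS higher and 2 lower, in ETO against DE 1 and 5 and 3 and 5, and in C75 against ETO 13 and 2 MRPL and 11 and 3 MRPS. Members that share no exon bases with another gene of the table are fewer (30 MRPL and 14 MRPS), with 11 MRPL higher and 6 lower and 4 MRPS higher and 1 lower in C75 against DE, 5 and 8 MRPL and 3 and 7 MRPS in ETO against DE, and 16 and 8 MRPL and 6 and 4 MRPS in C75 against ETO. For these counts the fit and the shares over all tested genes were those given in the results above. Leaving out 1 library gave 11 to 21 MRPL members higher in C75 against DE, the lowest without C75 replicate 2, and moved no other class count by more than 1.5 times. With the replicate block 29 members were higher and 11 lower in C75 against DE, 12 and 33 in ETO against DE and 42 and 17 in C75 against ETO, and no class count left its range of 1.5 times. MRPL53, MRPS17, MRPS28 and MRPL46 had under 10 CPM in DE, which limits their precision.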
